A study of Mus musculus with 32 samples.

Results

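The comparison described here sets mouse embryonic fibroblasts that overexpress Rxra, the gene of retinoid X receptor alpha, against their overexpression control during chemical reprogramming to pluripotency. It rests on 4 of the 32 libraries of the series: 2 labelled Rxra overexpression (Rxra OE) and 2 labelled WT OE (CTR), taken by their labels. All 4 come from OG2X129 embryonic fibroblasts, and both groups were kept in the same reprogramming medium. That medium held 0.5 mM VPA (a histone deacetylase inhibitor), 20 µM CHIR99021 (a GSK3 inhibitor that turns on Wnt signalling), 10 µM 616452 (a TGF-beta receptor inhibitor), 5 µM Parnate (an LSD1 inhibitor), 50 µM Forskolin (which raises cAMP), 0.5 µM AM580 (a retinoic acid receptor agonist), 5 µM EPZ004777 (a DOT1L inhibitor), 250 µM vitamin C and 20 ng/ml bFGF. The labels used here do not give the vector or promoter that drives Rxra, the day of harvest, or whether libraries 1 and 2 of a group came from separate cultures. With n = 2 per group, p-values therefore measure the spread between these libraries, which may be technical. Polyadenylated or total RNA selection is likewise not given in the sources used here.

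Retinoid X receptors are nuclear receptors that bind DNA as partners of other nuclear receptors. With a retinoic acid receptor (RAR) they occupy paired half-sites next to retinoic acid target genes, and with LXR, PPAR, vitamin D or thyroid hormone receptors they serve other ligands. Retinoic acid is made from retinol by retinaldehyde dehydrogenases, carried by cellular binding proteins and broken down by the Cyp26 enzymes, and several of these genes are themselves targets of the receptor pair. In chemical reprogramming of mouse fibroblasts, cells lose mesenchymal genes, gain epithelial genes and pass through a state that resembles extraembryonic endoderm (XEN-like) before pluripotency genes come on.

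A classical RXR and RAR site is a direct repeat of the half-site AGGTCA, here allowing G as its first base and T as the third, with 5 bases between both copies (DR5). Promoters of 300 bases (250 before the start and 50 from it) from RefSeq, build GRCm38.p6, were searched on both strands, and 32 of 32851 (0.0974%) held such a repeat. The 31 genes with a match included 5 that were tested here, and the pair best known for their retinoic acid response, Cyp26a1 and Rarb, are shown because they moved in opposite directions below. The 250 bases before each start are printed 5′ to 3′ on the gene's strand, with the repeat in capitals. The first lies at chr19:37697558-37697807 (plus strand) and the second at chr14:16575477-16575726 (minus strand).
Cyp26a1: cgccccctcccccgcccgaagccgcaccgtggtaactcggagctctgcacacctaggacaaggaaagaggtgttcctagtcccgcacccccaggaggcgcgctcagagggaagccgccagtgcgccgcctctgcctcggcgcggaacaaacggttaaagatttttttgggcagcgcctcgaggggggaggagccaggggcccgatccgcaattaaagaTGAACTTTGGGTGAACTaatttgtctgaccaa
Rarb: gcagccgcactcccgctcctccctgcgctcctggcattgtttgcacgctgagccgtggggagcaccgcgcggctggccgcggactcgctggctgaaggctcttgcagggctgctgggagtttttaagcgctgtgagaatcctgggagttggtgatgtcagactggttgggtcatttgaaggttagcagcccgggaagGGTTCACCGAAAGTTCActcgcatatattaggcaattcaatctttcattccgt
In Cyp26a1 the repeat reads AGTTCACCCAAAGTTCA on the opposite strand and spans 32 to 16 bases before the start, and in Rarb it reads forward and spans 53 to 37 bases before it. A match is a run of letters, and no binding was measured.

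Most of the deposited signal in all 4 libraries was mitochondrial, and it differed between the groups. Genes of the mitochondrial chromosome took 62.0% and 59.3% of the summed TPM (length-corrected transcript shares) in CTR and 50.9% in both Rxra OE libraries, a difference of 9.72 percentage points (exact permutation test, 2-sided, p = 0.333, the smallest that 2 against 2 libraries can give). mt-Nd4l, a short gene for a subunit of respiratory complex I, made up 52.3% and 50.0% in CTR and 42.5% and 42.4% in Rxra OE. A block of 7 pseudogene copies of mitochondrial genes on chromosome 1 (24611535 to 24616197, minus strand, mm10) added 15.0% and 14.6% in CTR and 10.9% and 12.1% in Rxra OE. Gm28439 alone accounted for most of it, and its 876 bases matched mt-Nd4 with 0 mismatches. mt-Nd4 and mt-Atp6, which have copies with 0 mismatches in that block, were themselves listed at 0 in every library, and so were mt-Nd1 and mt-Nd2, which have none there. Gm10222, a copy of mt-Nd4l with 0 mismatches, was at 0 as well. Reads of identical copies cannot be told apart, and how overlapping or copied genes were counted is not given in the sources used here, so the value of mt-Nd4l may not be that gene's own level. The remaining 55357 genes shared 23.1% and 26.1% of TPM in CTR against 38.3% and 37.0% in Rxra OE.

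**Figure D1:**
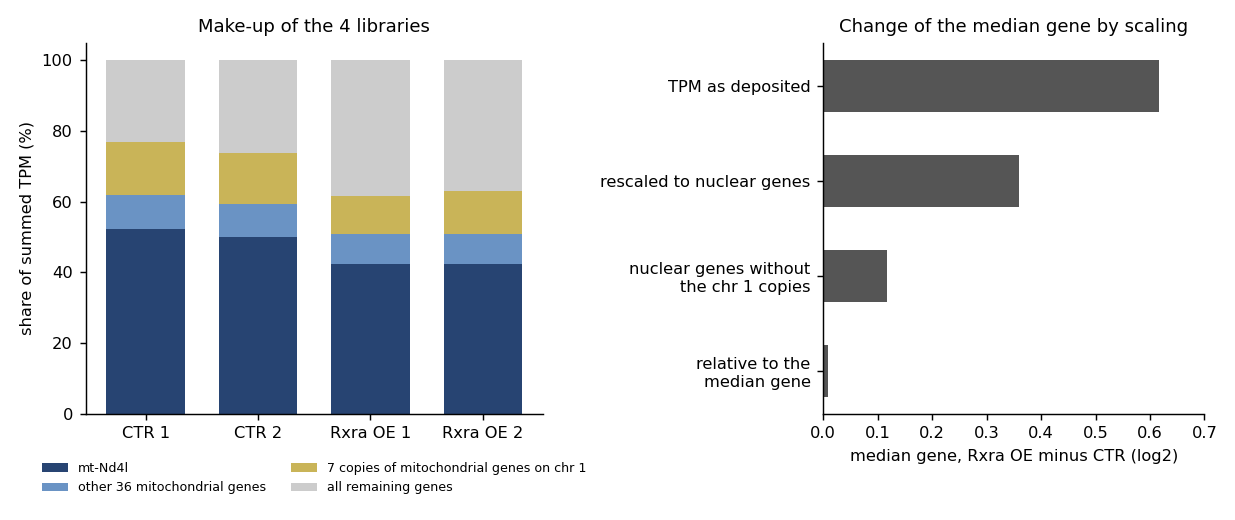
Left: share of summed TPM (%) in each of the 4 libraries taken by mt-Nd4l, the other 36 mitochondrial genes, 7 copies of mitochondrial genes on chromosome 1 and all remaining genes. Right: log2 difference of the median tested gene between Rxra OE and CTR under 4 scalings, which falls from 0.62 for TPM as deposited to 0.01 relative to the median gene.

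TPM are shares of a fixed total, so a lower share of some genes goes with a higher share of the rest by construction. Of 55401 listed genes, 13305 reached 1 TPM in at least 2 libraries and were tested, and the median gene stood 0.62 higher in Rxra OE on the log2 scale as deposited, 0.36 higher after rescaling to the sum over nuclear genes and 0.12 higher when the copies on chromosome 1 were also left out of that sum. Changes below are log2(TPM + 1) differences of Rxra OE minus CTR after each library was scaled by its median ratio, so they are relative to the median gene; each has its standard error, and TPM levels are as deposited. On this scale 4667 genes rose (35.1%) and 4718 fell (35.5%) at a limma adjusted p under 0.05, 1132 (8.51%) and 1538 (11.6%) of them by at least 2-fold. As deposited the counts were 9123 (68.6%) and 1862 (14%), rescaled to nuclear genes 7445 (56%) and 2884 (21.7%), and without the copies on chromosome 1 as well 5463 (41.1%) and 4005 (30.1%). Both Rxra OE libraries were above both CTR libraries as deposited in 74.3% of the tested genes and below both in 17.1%, so non-overlap alone is common here. A gene is said to have risen or fallen by name below only where it passed in all 3 scalings; 4667 genes (35.1%) did so upward and 1862 (14%) downward. Counts for gene lists use the scale of the median gene, followed where stated by those as deposited. A gene under 1 TPM in both libraries of one group was tested only through the other group. The direction of such a gene carries no weight, in the lists and where it is named.

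Rxra rose, by less than many genes that were not targeted. It lies on chromosome 2, 27676440 to 27762957, plus strand (mm10), and its level was 8.70 and 9.57 TPM in CTR and 21.7 and 21.7 TPM in Rxra OE. Both Rxra OE libraries were above both CTR libraries, as in 74.3% of all tested genes as deposited. The log2 change of Rxra was 0.47 ± 0.06 (adjusted p = 0.000957), 1.17 as deposited and 0.87 relative to nuclear genes. Of the 13305 tested genes, 3298 (24.8%) had a larger log2 change than Rxra. The values do not separate reads of the introduced Rxra from those of the cell's own gene.

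Rxrb, the second retinoid X receptor, was at 7.11 and 7.50 TPM in CTR and 18.1 and 15.8 TPM in Rxra OE, a log2 change of 0.42 ± 0.08 (adjusted p = 0.00518), and the difference between its change and that of Rxra was not tested. Rxrg, the third, stayed below the limit for testing. The retinoic acid receptors divided. Rara was at 2.05 and 2.32 TPM in CTR and 5.50 and 4.16 TPM in Rxra OE and did not pass (0.29 ± 0.12, adjusted p = 0.0761), although it passed upward as deposited (0.86). Rarg stood at 15.9 and 18.3 TPM in CTR and 8.44 and 8.07 TPM in Rxra OE and fell (-1.65 ± 0.07, adjusted p = 1.76e-05). Rarb, whose repeat is printed above, was at 34.3 and 36.7 TPM in CTR and 13.6 and 12.8 TPM in Rxra OE and fell by more (-2.07 ± 0.06, adjusted p = 9.05e-06). Both its Rxra OE values were below both CTR values, as in 17.1% of all tested genes as deposited. Of the other partner receptors, Ppard went from 13.9 to 7.46 TPM (-1.49 ± 0.09), Thrb from 2.26 to 0.759 TPM (-1.30 ± 0.17) and Nr4a1 from 16.7 to 12.9 TPM (-1.05 ± 0.06), and all 3 fell. Thrb was under 1 TPM in both Rxra OE libraries, so its direction carries no weight. Nr1h2, the gene of LXR beta, did not pass (-0.11 ± 0.06; 0.62 as deposited). Nr1h3, Ppara, Pparg and Vdr were not tested because their levels were too low.

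**Figure D2:**
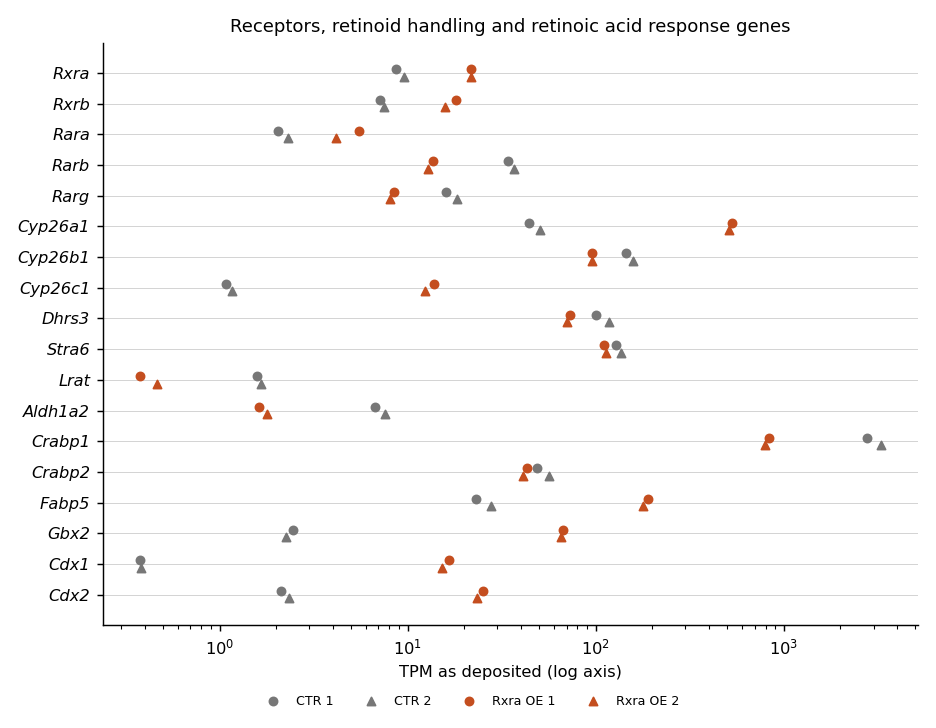
TPM as deposited (log axis) of 18 receptor, retinoid handling and retinoic acid response genes in the 2 CTR libraries (grey) and the 2 Rxra OE libraries (orange), circles for replicate 1 and triangles for replicate 2. Cyp26a1, Gbx2, Cdx1 and Fabp5 lie far to the right in Rxra OE, and Rarb, Rarg, Aldh1a2 and Crabp1 to the left.

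Retinoic acid response genes moved in both directions, as did all tested genes (35.1% rose and 35.5% fell). Of 22 tested, 11 rose and 9 fell (median 0.27, against 0.01 over all tested genes; 13 and 7 as deposited). The risers included the early developmental homeobox genes. Gbx2, active in the posterior embryo and at the hindbrain border, was at 2.46 and 2.25 TPM in CTR and 67.2 and 65.5 TPM in Rxra OE and had a change of 3.69 ± 0.08 (adjusted p = 7.89e-06). Cdx1, a caudal homeobox gene, was at 0.377 and 0.383 TPM in CTR and 16.6 and 15.3 TPM in Rxra OE (3.15 ± 0.09), and Cdx2 at 2.13 and 2.33 TPM in CTR and 25.1 and 23.5 TPM in Rxra OE (2.34 ± 0.07). None of these groups overlapped, and both Rxra OE libraries were above both CTR libraries in 74.3% of all tested genes as deposited. Cdx1, under 1 TPM in both CTR libraries, was tested only through its level in Rxra OE. Hoxa5, a Hox gene, rose by 0.49.

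The 3 enzymes that break down retinoic acid did not move together. Cyp26a1 (chromosome 19, 37697798 to 37701536, plus strand, mm10) stood at 44.3 and 50.5 TPM in CTR and 530.1 and 512 TPM in Rxra OE, a change of 2.69 ± 0.05 (adjusted p = 7.89e-06) that only 18 genes exceeded. Cyp26c1 was at 1.08 and 1.16 TPM in CTR and 13.9 and 12.4 TPM in Rxra OE and also rose (2.18 ± 0.09). Cyp26b1, at 144 and 158 TPM in CTR and 95 and 95.8 TPM in Rxra OE, fell (-1.40 ± 0.05, adjusted p = 1.26e-05). Dhrs3, which turns retinal back to retinol and is a common marker of retinoic acid action, was at 100.2 and 117 TPM in CTR and 73.3 and 70.2 TPM in Rxra OE and fell (-1.33 ± 0.06), as did Stra6, the retinol uptake receptor (133 to 112 TPM, -0.99 ± 0.05), and Lrat, which stores retinol as esters (1.62 to 0.422 TPM, -1.23 ± 0.09). Lrat was tested only through CTR, so its direction carries no weight. So of the 2 genes whose promoters are printed above with a DR5 repeat, one rose and the other fell. The other 3 tested genes with a DR5 match were Ppbp (log2 change -0.46 ± 0.08), Syndig1 (-1.69 ± 0.12) and Blvrb (0.09 ± 0.08, adjusted p = 0.358), so that 1 of 5 rose and 3 fell on the scale of the median gene, and Ppbp did not pass as deposited.

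Carriers of retinoic acid moved apart as well. Crabp1, a cellular binding protein and one of the most abundant messages in CTR, was at 2755 and 3303 TPM in CTR and 839 and 795 TPM in Rxra OE and fell (-2.63 ± 0.08, adjusted p = 9.05e-06). Crabp2, which hands retinoic acid to RAR, went from 52.7 to 42.0 TPM and fell (-1.05 ± 0.06). Fabp5, a fatty acid carrier that also binds retinoic acid, was at 23.1 and 27.7 TPM in CTR and 189.8 and 179 TPM in Rxra OE and rose (2.09 ± 0.07, adjusted p = 1.05e-05). Of the enzymes that make retinoic acid, Aldh1a2 fell from 7.16 to 1.71 TPM (-2.15 ± 0.08) and Aldh1a1 from 1.25 to 0.229 TPM (-1.15 ± 0.09), while Aldh1a3 rose from 0.224 to 1.16 TPM (0.55 ± 0.10) and the alcohol dehydrogenase Adh1 from 6.01 to 23 TPM (1.09 ± 0.07). Aldh1a1 was tested only through CTR and Aldh1a3 only through Rxra OE, so their direction carries no weight. In all, 8 rose and 10 fell of 20 tested genes of retinoid metabolism and binding (10 and 7 as deposited; median -0.26).

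Targets of the other partners also moved in both directions, as did all tested genes, of which 35.1% rose and 35.5% fell (68.6% and 14% as deposited). Of 12 tested LXR targets, 4 rose and 7 fell (6 and 3 as deposited; median -0.53). Apoe, the lipoprotein component, was at 18.4 and 26.3 TPM in CTR and 114 and 103 TPM in Rxra OE and rose (1.52 ± 0.13), whereas the sterol exporter Abca1 (4.02 to 2.96 TPM, -0.92 ± 0.11), the desaturase Scd1 (115 to 66.4 TPM, -1.52 ± 0.05) and Arl4c (93.5 to 53.9 TPM, -1.52 ± 0.05) fell. Srebf1, a direct LXR target, did not pass (-0.12 ± 0.06; 0.58 as deposited). Among 16 PPAR targets, 5 rose and 9 fell (7 and 4 as deposited; median -0.64). The fatty acid carrier Fabp3 (16 to 71.6 TPM, 1.37 ± 0.06) rose, and the lipid droplet coat Plin2 (201 to 106 TPM, -1.67 ± 0.05), the secreted lipase inhibitor Angptl4 (-1.36 ± 0.12) and Cpt1a (-1.28 ± 0.07) fell. Dio3, which inactivates thyroid hormone, fell from 14.6 to 3.42 TPM (-2.45 ± 0.09), and the calcium channel Trpv6, a vitamin D target, rose from 0.216 to 2.11 TPM (1.04 ± 0.11). Trpv6 was tested only through Rxra OE, so its direction carries no weight. Among 20 tested receptor coregulators, 4 rose and 8 fell (median -0.17), where 35.1% and 35.5% of all tested genes did so. As deposited 12 rose and 1 fell, against 68.6% and 14% of all tested genes. Ppargc1a (0.89 ± 0.12), Gps2 (0.88 ± 0.10) and Prmt1 (0.68 ± 0.07) rose, and Ncoa1 fell (-0.84 ± 0.10).

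**Figure D3:**
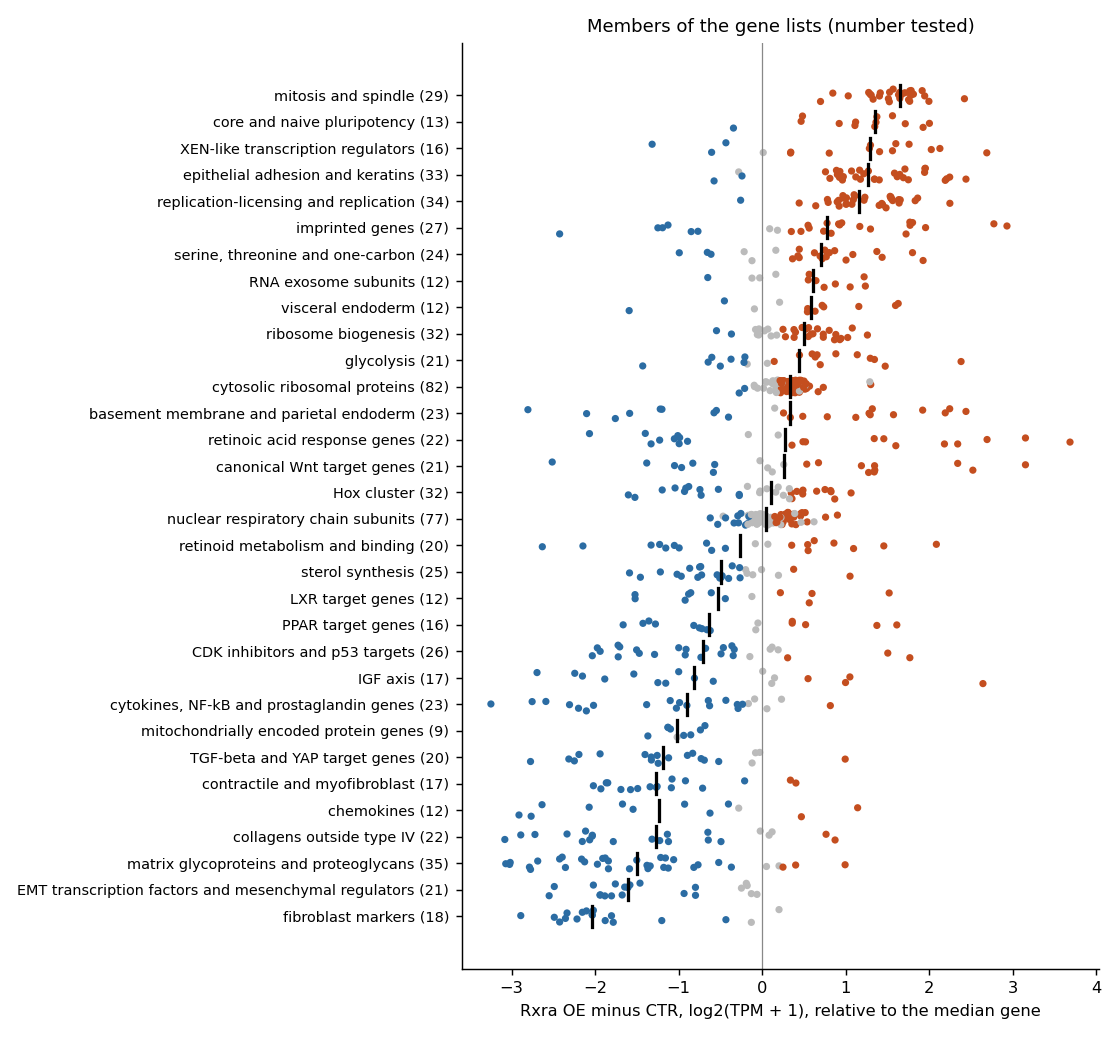
Log2 change (Rxra OE minus CTR, relative to the median gene) of each tested member of 32 gene lists, with the number tested in brackets. Orange points rose, blue points fell and grey points did not pass at an adjusted p under 0.05 on this scale; black bars are list medians, from 1.65 for mitosis and spindle genes to -2.03 for fibroblast markers.

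Most tested epithelial genes rose. Of 33 tested, 30 rose and 2 fell (median 1.27; 32 and 0 as deposited). Among the risers, 7 were under 1 TPM in both CTR libraries, Esrp2 and Grhl2 included, so their direction carries no weight. In bulk samples such as these, more cells of a type and more RNA per cell cannot be told apart. Cdh1, the gene of E-cadherin, was at 5.58 and 5.49 TPM in CTR and 31.3 and 32.5 TPM in Rxra OE, a change of 1.65 ± 0.08 (adjusted p = 2.4e-05). Epcam, an epithelial adhesion molecule, was at 24.4 and 29.3 TPM in CTR and 155 and 153 TPM in Rxra OE (1.75 ± 0.06), and Krt8, a simple epithelial keratin, at 18.7 and 22.3 TPM in CTR and 171 and 165 TPM in Rxra OE (2.25 ± 0.06). No group overlapped in these 3 genes, and both Rxra OE libraries were above both CTR libraries in 74.3% of all tested genes as deposited. Members that rose included the junction genes Marveld3 (2.21 ± 0.08), Cldn4 (1.95 ± 0.07), Crb3 (1.94 ± 0.08) and Ocln (1.18 ± 0.09), but not the junction gene Tjp1 (-0.28), and the epithelial splicing regulators Esrp1 (1.40 ± 0.11) and Esrp2 (1.12 ± 0.08) and the transcription factor Grhl2 (0.93 ± 0.09). The others were Dsp and Jup, desmosomal genes, and Tjp1. Dsp was at 10.3 and 10.1 TPM in CTR and 10.8 and 11.3 TPM in Rxra OE, lower relative to the median gene (-0.58 ± 0.08) and without a call as deposited, and Jup and Tjp1 changed by -0.24 and -0.28, with the opposite sign as deposited (0.46 and 0.41).

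Regulators of the XEN-like state rose too. Of 16 tested, 12 rose and 3 fell (median 1.29; 14 and 1 as deposited). Sox17, an endoderm factor, was at 29.3 and 39.5 TPM in CTR and 406 and 349 TPM in Rxra OE (2.69 ± 0.12, adjusted p = 2.11e-05). Gata4 was at 19.1 and 20.9 TPM in CTR and 141 and 140.5 TPM in Rxra OE (2.02 ± 0.05), Gata6 at 5.50 and 6.08 TPM in CTR and 25.7 and 25.8 TPM in Rxra OE (1.30 ± 0.06), and Sall4, which is shared with pluripotent cells, at 1.08 and 1.27 TPM in CTR and 8.51 and 8.16 TPM in Rxra OE (1.56 ± 0.08). In each of these 4 genes the lowest Rxra OE library was above the highest CTR library, as in 74.3% of all tested genes as deposited. Nr2f2, a mesenchymal orphan receptor gene, fell (17.9 to 11.3 TPM, -1.32 ± 0.08). Hnf4a, a later endoderm factor, did not pass (0.01 ± 0.09).

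Basement membrane and parietal endoderm genes divided, with 13 rose and 9 fell of 23 (median 0.34; 15 and 6 as deposited). Col4a1 and Col4a2, the type IV collagen chains, rose from 76.7 to 323 TPM (1.32 ± 0.06) and from 68.2 to 282 TPM (1.29 ± 0.06), and the laminin chain Lama1 (1.12 ± 0.07), the heparan sulfate proteoglycan Agrn (1.57 ± 0.07) and the parathyroid hormone receptor Pth1r (1.92 ± 0.06) rose with them. Nid1, which links laminin to type IV collagen, was at 90.5 and 95.2 TPM in CTR and 20.5 and 21.9 TPM in Rxra OE and fell (-2.81 ± 0.06, adjusted p = 7.89e-06). The plasminogen activator Plat (93.9 to 35.7 TPM, -2.10 ± 0.06) and the proteoglycan Hspg2 (28.4 to 15.0 TPM, -1.59 ± 0.06) fell as well. Of 12 tested visceral endoderm genes, 8 rose and 2 fell (median 0.59), with 3 of the risers under 1 TPM in both CTR libraries. The largest rises in visceral endoderm genes were those of Dpp4 (5.83 to 33.0 TPM, 1.63 ± 0.09) and the hedgehog ligand Ihh (20.5 to 107 TPM, 1.60 ± 0.06). Afp, Ttr, Apoa1 and Cer1, defining genes of that tissue, were below the limit for testing.

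Of 29 core and naive pluripotency genes, 13 reached the limit, of which 12 rose and 1 fell (median 1.35); 4 of the risers were under 1 TPM in both CTR libraries, so they reached the limit only through Rxra OE and their direction carries no weight. Lin28a, an RNA-binding protein of pluripotent cells, was at 0.817 and 1.05 TPM in CTR and 10.4 and 9.88 TPM in Rxra OE (2.00 ± 0.09), and Klf5 at 15.3 and 16.1 TPM in CTR and 67.7 and 73.2 TPM in Rxra OE (1.37 ± 0.07). Klf4 rose from 21 to 77.7 TPM (1.12 ± 0.06) and Tbx3 from 18.6 to 60.3 TPM (0.92 ± 0.06). The key factors Pou5f1, Nanog and Sox2 were not tested: Pou5f1 was at 0 and 0 TPM in CTR and 0.0291 and 0.163 TPM in Rxra OE, and Nanog at 0.0511 and 0 TPM in CTR and 0.102 and 0 TPM in Rxra OE. None of 11 listed genes of the 2-cell-like state reached the limit.

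Most fibroblast markers fell. Of 18 tested fibroblast markers, 0 rose and 16 fell (median -2.03; 3 and 15 as deposited). Thy1, a surface marker of fibroblasts, was at 476 and 544 TPM in CTR and 186 and 180.4 TPM in Rxra OE and fell (-2.22 ± 0.05, adjusted p = 7.93e-06). Col1a1, the main chain of type I collagen, was at 289 and 323 TPM in CTR and 70.5 and 65.9 TPM in Rxra OE (-2.89 ± 0.06), and Pdgfrb fell from 11.9 to 3.64 TPM (-2.10 ± 0.08). Vim and Fn1, often used as mesenchymal markers, were exceptions: Vim was at 174 and 193 TPM in CTR and 288 and 275 TPM in Rxra OE (-0.13 ± 0.05, adjusted p = 0.0698) and Fn1 at 27.7 and 26.4 TPM in CTR and 51.3 and 53.6 TPM in Rxra OE (0.20 ± 0.08, adjusted p = 0.0701). Both passed upward as deposited (0.62 and 0.93). Pdgfra, at 104 and 108 TPM in CTR and 129 and 135 TPM in Rxra OE, was lower relative to the median gene (-0.43 ± 0.06) and higher as deposited (0.31).

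Among 21 transcription factors and regulators of the mesenchymal state, 0 rose and 16 fell (median -1.61; 4 and 15 as deposited). The drivers of the epithelial to mesenchymal transition fell: Snai1 from 49.2 to 23.6 TPM (-1.76 ± 0.06), Snai2 from 18.3 to 6.62 TPM (-2.02 ± 0.08), Zeb1 from 13.5 to 6.72 TPM (-1.58 ± 0.09), Zeb2 from 9.43 to 3.36 TPM (-1.88 ± 0.11) and Twist1 from 307 to 146 TPM (-1.8 ± 0.07). Cdh11, a mesenchymal cadherin, fell from 172 to 48.4 TPM (-2.55 ± 0.06), while Cdh2, the gene of N-cadherin, did not pass (-0.18 ± 0.08; 0.48 as deposited).

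Fibrillar and microfibrillar matrix genes fell with them. 2 rose and 17 fell of 22 tested collagen genes outside type IV (median -1.27; 5 and 14 as deposited), the risers being Col9a3 (0.87 ± 0.09) and Col13a1 (0.76 ± 0.10). Col9a3 was under 1 TPM in both CTR libraries, so its direction carries no weight. Col6a3, a type VI chain, fell from 36.9 to 6.19 TPM (-3.08 ± 0.07) and Col12a1 from 42.4 to 9.71 TPM (-2.72 ± 0.07). Of 35 matrix glycoproteins and proteoglycans, 3 rose and 30 fell (median -1.5; 6 and 26 as deposited), with Thbs2 (-3.07 ± 0.06), Fbln5 (-3.02 ± 0.09), Tnc (-3.02 ± 0.06) and Bgn (-2.79 ± 0.07) at the low end. Eln, the gene of elastin, went from 0.678 to 3.53 TPM (0.99 ± 0.12), but it was under 1 TPM in both CTR libraries, so its direction carries no weight. Of 27 metalloproteinases and their inhibitors, 5 rose and 20 fell (8 and 16 as deposited). Mmp2, a gelatinase, was at 601 and 664 TPM in CTR and 157 and 160.1 TPM in Rxra OE and fell (-2.73 ± 0.05), and its activator Mmp14 (-1.82 ± 0.07) and the inhibitors Timp2 (-1.84 ± 0.05) and Timp3 (-2.32 ± 0.08) also fell. Mmp7, an epithelial metalloproteinase known as matrilysin, was at 0.24 and 0.556 TPM in CTR and 14.1 and 14.1 TPM in Rxra OE and rose (2.99 ± 0.13, adjusted p = 2.18e-05). It was tested only through Rxra OE, so its direction carries no weight.

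The contractile apparatus was lower, with 2 rose and 15 fell of 17 (median -1.27; 3 and 12 as deposited). Acta2, the smooth muscle actin of myofibroblasts, fell from 78.6 to 35.7 TPM (-1.85 ± 0.05), and Tagln from 81.0 to 34.6 TPM (-1.93 ± 0.06). Among 13 integrin genes, 1 rose and 10 fell (3 and 8 as deposited): Itga3, a laminin receptor chain of epithelia, rose (7.14 to 21.5 TPM, 0.78 ± 0.07), and Itga8 (-2.59 ± 0.08) and Itgb5 (-2.13 ± 0.07) fell.

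**Figure D4:**
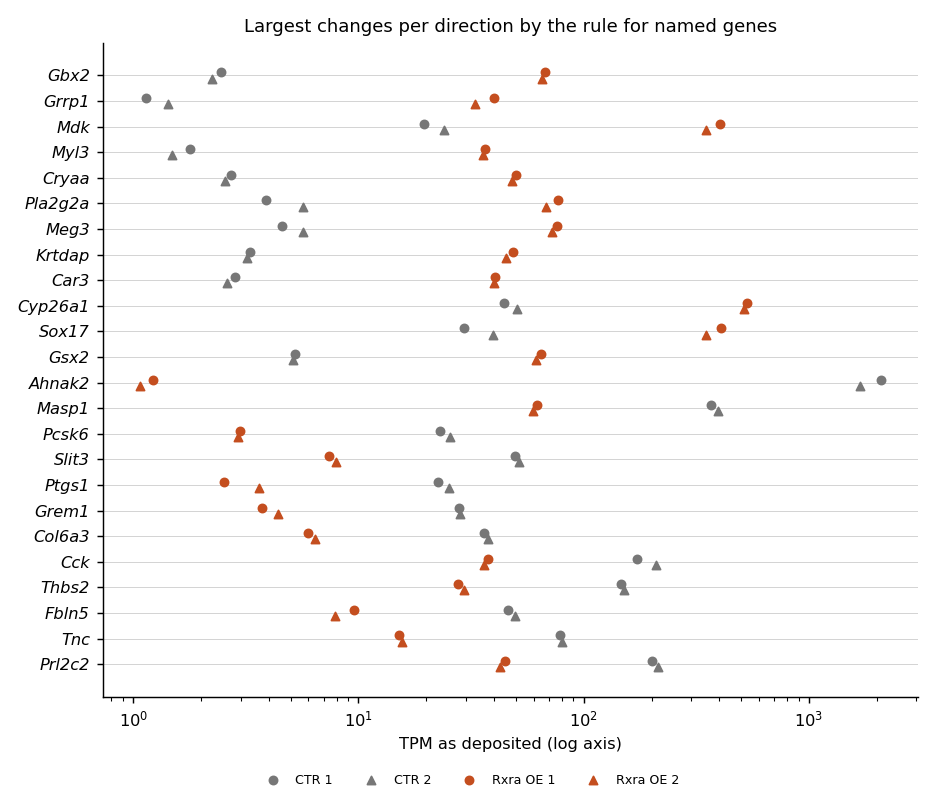
TPM as deposited (log axis) of the 12 largest rises (Gbx2 to Gsx2) and the 12 largest falls (Ahnak2 to Prl2c2) chosen by the rule for named genes, which leaves out clone-named genes and small RNAs, in the 2 CTR libraries (grey) and the 2 Rxra OE libraries (orange). The groups do not overlap in any of the 24 genes, which the rule required.

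By the rule for named genes, which leaves out genes with clone names and small RNAs, the 12 largest rises were those of Gbx2, Cyp26a1 and Sox17, given above, and of Grrp1 (3.44 ± 0.11), the heparin-binding growth factor gene Mdk (3.31 ± 0.09), the myosin light chain Myl3 (3.21 ± 0.11), the lens crystallin Cryaa (3.13 ± 0.08), the secreted phospholipase Pla2g2a (3.0 ± 0.13), the long non-coding RNA Meg3 (2.93 ± 0.07), Krtdap (2.84 ± 0.08), the carbonic anhydrase Car3 (2.83 ± 0.09) and the homeobox gene Gsx2 (2.68 ± 0.07). Ahnak2, a large scaffold protein gene, had the largest fall by the rule (-10.34), at 2095 and 1687 TPM in CTR and 1.23 and 1.07 TPM in Rxra OE. It also lay far apart between replicates of one group elsewhere in the series, at 2.39 and 2678 TPM in DMSO and 1.06 and 1.54 TPM in CD. Of the other 11 largest falls, Col6a3, Thbs2, Fbln5 and Tnc are given above with the matrix genes, and the rest were in Masp1, a protease of the complement lectin pathway (381 to 60.7 TPM, -3.37 ± 0.05), the proprotein convertase Pcsk6 (-3.31 ± 0.07), the guidance ligand Slit3 (-3.26 ± 0.07), the cyclooxygenase Ptgs1 (-3.25 ± 0.13), the BMP antagonist Grem1 (-3.18 ± 0.09), the peptide hormone gene Cck (191 to 36.9 TPM, -3.07 ± 0.07) and Prl2c2 (-2.96 ± 0.05), whose near-identical paralogs make its count uncertain.

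Signalling pathways differed in how their genes moved. Of 21 canonical Wnt targets, 10 rose and 7 fell (median 0.26; 14 and 4 as deposited). Among these risers, 2 were under 1 TPM in both CTR libraries, so their direction carries no weight. T, the gene of brachyury, is such a gene: it was at 0.129 and 0.287 TPM in CTR and 7.97 and 8.24 TPM in Rxra OE and rose (2.52 ± 0.11, adjusted p = 1.89e-05). Sp5 (6.93 to 31.6 TPM, 1.35 ± 0.06), Tcf7 (1.35 ± 0.08), Myc (6.49 to 28.2 TPM, 1.27 ± 0.07) and Axin2 (23.3 to 57.3 TPM, 0.53 ± 0.05) rose as well. Feedback inhibitors were not uniform: Nkd2 fell from 26.2 to 6.64 TPM (-2.51 ± 0.07) and Wif1 from 30.2 to 18.7 TPM (-1.38 ± 0.06), while Notum, at 92.2 and 113 TPM in CTR and 173 and 163 TPM in Rxra OE, did not pass (-0.03 ± 0.07; 0.72 as deposited). TGF-beta and YAP targets were almost all lower: of 20, 1 rose and 16 fell (median -1.18; 4 and 12 as deposited). Ccn1, a YAP target, was at 123 and 134 TPM in CTR and 42.4 and 42.3 TPM in Rxra OE and fell (-2.32 ± 0.05), as did Pmepa1 (-2.25 ± 0.06), Axl (-2.19 ± 0.07) and Ltbp2 (-2.77 ± 0.07). The riser was Bambi, a decoy receptor (1.23 to 5.40 TPM, 0.99 ± 0.10).

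BMP genes leaned down, with 3 rose and 13 fell of 18 (7 and 6 as deposited). The ligand Bmp2 rose from 8.07 to 30.3 TPM (1.09 ± 0.06). Within the FGF list, 5 rose and 12 fell of 21 (13 and 6 as deposited). Fgf3 was at 1.93 and 2.84 TPM in CTR and 19.8 and 20.2 TPM in Rxra OE and rose (2.02 ± 0.12), and the receptor genes changed in opposite directions, Fgfr4 from 2.25 to 11 TPM (1.28 ± 0.08) and Fgfr1 from 64.3 to 24.4 TPM (-2.09 ± 0.08). The ERK target Fosl1 fell (16.2 to 3.84 TPM, -2.47 ± 0.08), and Dusp6, Spry2 and Etv4 did not pass (0.09, 0.09 and -0.08; 0.58 for Etv4 as deposited).

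Genes of the insulin-like growth factor axis went both ways. Of 17, 4 rose and 10 fell (7 and 8 as deposited). Igf1, the growth factor of mesenchyme, fell from 39.5 to 13.9 TPM (-2.15 ± 0.07), and Igf2, the fetal growth factor, rose from 399 to 983 TPM (0.55 ± 0.09). Igfbp2 was at 29.4 and 37.8 TPM in CTR and 369.9 and 344 TPM in Rxra OE and rose (2.64 ± 0.09, adjusted p = 1.12e-05). Igfbp3, at 709.7 and 766 TPM in CTR and 334 and 336 TPM in Rxra OE, fell (-1.89 ± 0.05), and Igfbp6 fell from 139 to 34.8 TPM (-2.70 ± 0.08). In the midkine and pleiotrophin group, 3 rose and 6 fell of 9 tested. Mdk was at 19.6 and 24.0 TPM in CTR and 401 and 347 TPM in Rxra OE, with a log2 change of 3.31 ± 0.09 (adjusted p = 8.81e-06). Its relative Ptn fell (11.5 to 8.36 TPM, -1.09 ± 0.08), as did the receptors Lrp1 (-2.54 ± 0.06), Sdc2 (-2.22 ± 0.07) and Ptprz1 (-1.56 ± 0.10). Sdc4 (0.37 ± 0.06) and Ncl (0.40 ± 0.05) of the same list rose.

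Cell division genes were higher throughout. All 29 tested mitosis and spindle genes rose (median 1.65), from Anln (0.70 ± 0.09) to the centromere histone Cenpa (2.42 ± 0.06). Cdk1, the mitotic kinase, was at 2.41 and 3.09 TPM in CTR and 18.9 and 18.9 TPM in Rxra OE (1.78 ± 0.09). Of 34 replication genes, 33 rose and 1 fell (median 1.16), the exception being Rpa1 (-0.26 ± 0.06), which was higher as deposited (0.45). Risers under 1 TPM in both CTR libraries numbered 2 in the mitosis list and 4 in the replication list. Pcna, the replication clamp, was at 25.5 and 25.3 TPM in CTR and 129.8 and 126 TPM in Rxra OE (1.55 ± 0.07), and Gins1 changed most (2.25 ± 0.12). Of 26 CDK inhibitors and p53 targets, 3 rose and 19 fell (9 and 10 as deposited; median -0.71). Cdkn1a, the gene of p21, was at 286 and 339 TPM in CTR and 164 and 152 TPM in Rxra OE and fell (-1.72 ± 0.07, adjusted p = 1.57e-05), and the Ink4 genes Cdkn2a (135 to 91.8 TPM, -1.29 ± 0.06) and Cdkn2b (56.4 to 22.1 TPM, -2.03 ± 0.06) fell with it. Cdkn1c, the imprinted gene of p57, was at 18.6 and 22.5 TPM in CTR and 126 and 115 TPM in Rxra OE and rose (1.77 ± 0.07), and Cdkn1b, the gene of p27, rose from 3.13 to 17.3 TPM (1.5 ± 0.08).

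The RNA exosome, the complex that degrades RNA from its 3′ end and that the study addresses through Exosc3, was higher in part. Of its 12 subunit genes, 8 rose and 1 fell (median 0.60; 11 and 0 as deposited). Exosc3, a cap subunit, was at 5.53 and 7.93 TPM in CTR and 25.6 and 23.5 TPM in Rxra OE (1.05 ± 0.12, adjusted p = 0.000651). Among the ring subunits, Exosc8 was at 5.55 and 6.84 TPM in CTR and 25 and 27.4 TPM in Rxra OE (1.24 ± 0.09) and Exosc7 at 4.65 and 5.53 TPM in CTR and 22.1 and 21.1 TPM in Rxra OE (1.22 ± 0.07); Exosc5 (0.88 ± 0.07) and Exosc6 (0.55 ± 0.17) also rose, while Exosc9 (0.16 ± 0.09) and Exosc4 (-0.03 ± 0.07; 0.66 as deposited) did not pass. Exosc6, counted among the 8 risers, was under 1 TPM in both CTR libraries and was tested only through Rxra OE, so its direction carries no weight. The other cap subunits Exosc1 (0.56 ± 0.07) and Exosc2 (0.64 ± 0.08) rose. The nucleases differed: Dis3 rose (2.90 to 9.02 TPM, 0.74 ± 0.08), Exosc10, the nuclear one, did not pass (-0.12 ± 0.06; 0.58 as deposited), and the cytoplasmic Dis3l, at 3.56 and 4.24 TPM in CTR and 3.67 and 3.70 TPM in Rxra OE, was lower relative to the median gene (-0.65 ± 0.08) without a call as deposited. Of 19 cofactors, 6 rose and 3 fell (median 0.07), a share of risers near the 35.1% of all tested genes. Mphosph6 (0.82 ± 0.09) and Zcchc8 (0.80 ± 0.09) rose most, and the helicase Mtrex did not pass (0.19 ± 0.07). Of 35 genes of other RNA decay, 20 rose and 3 fell (median 0.31). Lsm5, a gene of this list, was at 3.38 and 1.18 TPM in CTR and 30.4 and 28.0 TPM in Rxra OE (2.67 ± 0.36, adjusted p = 0.00116), and Lsm2, Lsm3, Lsm4 and Lsm7 rose by 0.79 to 1.01. Zfp36, which targets unstable cytokine messages, fell (24.0 to 18.9 TPM, -1.05 ± 0.07).

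Inflammatory ligands fell. Of 12 tested chemokine genes, 2 rose and 9 fell (median -1.24; 2 and 7 as deposited). Ccl8 was at 482 and 502 TPM in CTR and 123 and 141 TPM in Rxra OE (-2.64 ± 0.08) and Ccl7 at 87.1 and 82.6 TPM in CTR and 18.1 and 21.8 TPM in Rxra OE (-2.77 ± 0.11), Ccl2 fell from 16 to 5.37 TPM (-2.07 ± 0.10), and Cx3cl1 rose from 0.624 to 3.81 TPM (1.14 ± 0.14). Cx3cl1 was under 1 TPM in both CTR libraries, so its direction carries no weight. Among 23 cytokine, NF-kB and prostaglandin genes, 1 rose and 18 fell (7 and 12 as deposited). The prostaglandin enzymes Ptgs2 (12.2 to 1.95 TPM, -2.76 ± 0.10) and Ptges (81.0 to 32.6 TPM, -2.02 ± 0.05) and the macrophage growth factor Csf1 (17.7 to 5.00 TPM, -2.31 ± 0.10) fell. The riser was Lif, the cytokine that sustains mouse pluripotent cells, at 13.9 and 15.6 TPM in CTR and 43.9 and 45.1 TPM in Rxra OE (0.82 ± 0.06). Of 12 complement and serpin genes, 0 rose and 11 fell (3 and 6 as deposited). The classical MHC class I genes rose: H2-K1 was at 28.3 and 30.7 TPM in CTR and 166 and 154 TPM in Rxra OE (1.66 ± 0.06), H2-D1 went from 15.5 to 67.4 TPM (1.34 ± 0.07) and B2m from 94.8 to 248 TPM (0.63 ± 0.05), while the peptide transporter genes Tap1 (-1.06 ± 0.08) and Tap2 (-1.0 ± 0.10) fell. H2 genes are near-identical copies of one another, and reads may have been divided among them.

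Mitochondrially encoded energy genes were lower relative to the median gene. All 9 tested mitochondrial protein genes had a negative change on that scale (median -1.02), and 4 of them fell as deposited too: mt-Nd3 (-1.37 ± 0.08), mt-Cytb (-1.13 ± 0.08), mt-Nd6 (-1.13 ± 0.12) and mt-Nd5 (-1.10 ± 0.10). mt-Nd4l, which dominates the libraries, did not pass (-1.02 ± 0.37, adjusted p = 0.0503). mt-Co1, at 9345 and 9593 TPM in CTR and 9718 and 10082 TPM in Rxra OE, was lower relative to the median gene (-0.69 ± 0.10) without a call as deposited. Of 77 nuclear subunit genes of the respiratory chain, 26 rose and 10 fell (median 0.05), a share of risers near the 35.1% of all tested genes, and 72 and 0 as deposited. Mitochondrial ribosomal protein genes had 42 rose and 3 fell of 78 (median 0.26), and cytosolic ones 57 rose and 2 fell of 82 (median 0.34), many of which have processed copies in the genome that may take some of their reads. Ribosome assembly genes had 22 rose and 2 fell of 32 (median 0.50), led by Nop56 (22.1 to 90.8 TPM, 1.26 ± 0.05), Gar1 (1.08 ± 0.13) and Npm1 (140.2 to 480.3 TPM, 1.02 ± 0.06).

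Genes of one-carbon metabolism were higher, and glycolysis was mixed. Of 24 genes of serine, threonine and one-carbon metabolism, 18 rose and 3 fell (median 0.71). Tdh, the threonine dehydrogenase on which mouse pluripotent cells depend, was at 4.73 and 5.55 TPM in CTR and 37.1 and 35.8 TPM in Rxra OE (1.93 ± 0.07), and Phgdh, the entry to serine synthesis, rose from 11.6 to 52.5 TPM (1.37 ± 0.06). Of 21 glycolysis genes, 12 rose and 7 fell (17 and 1 as deposited; median 0.45). The lactate exporter Slc16a3 was at 4.09 and 5.92 TPM in CTR and 54.9 and 43.0 TPM in Rxra OE (2.38 ± 0.15, adjusted p = 6.96e-05), and the glucose transporters Slc2a1 (9.32 to 41.6 TPM, 1.34 ± 0.07) and Slc2a3 (20.7 to 98.9 TPM, 1.47 ± 0.06) rose. Pfkm, the muscle phosphofructokinase, fell (10.1 to 5.48 TPM, -1.43 ± 0.08). Sterol synthesis leaned down, with 2 rose and 18 fell of 25 (median -0.49), though 11 and 5 as deposited. Cyp51 (46.1 to 27.4 TPM, -1.46 ± 0.06), Hsd17b7 (-1.59 ± 0.07) and Sc5d (-1.22 ± 0.09) fell.

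Genes of DNA methylation and chromatin more often rose than fell. Of 13 DNA methylation genes, 7 rose and 3 fell. Among these risers, 2 were under 1 TPM in both CTR libraries, Dnmt3b included, so their direction carries no weight. Uhrf1, which maintains methylation at replication, was at 2.47 and 2.92 TPM in CTR and 21.9 and 21.4 TPM in Rxra OE (1.98 ± 0.07). The de novo enzyme Dnmt3b went from 0.775 to 5.59 TPM (1.41 ± 0.08) but was tested only through Rxra OE. Dnmt3a did not pass (0.09 ± 0.09). Of 35 chromatin regulators, 20 rose and 5 fell (median 0.34); Ezh2, the Polycomb methyltransferase, was at 4.10 and 3.70 TPM in CTR and 25.1 and 24.9 TPM in Rxra OE (1.74 ± 0.10), and Kdm1a, the target of Parnate in the medium, rose from 10.9 to 35.4 TPM (0.91 ± 0.06). Among imprinted genes, 19 rose and 6 fell of 27 (median 0.78), but 6 of the risers were under 1 TPM in both CTR libraries. The direction of those 6 carries no weight. In the Dlk1 and Meg3 cluster, the non-coding RNA Meg3 was at 4.60 and 5.68 TPM in CTR and 75.8 and 72.5 TPM in Rxra OE (2.93 ± 0.07). The non-coding RNA Rian was at 20.0 and 21.5 TPM in CTR and 123 and 126 TPM in Rxra OE (1.8 ± 0.05). Both rose, and so did Dlk1 (4.06 to 14.2 TPM, 0.93 ± 0.09). Mirg, another non-coding RNA there, was at 0.162 and 0.505 TPM in CTR and 11.9 and 10.5 TPM in Rxra OE (2.77 ± 0.15). It was tested only through Rxra OE, so its direction carries no weight. H19 was at 944 and 1102 TPM in CTR and 5945 and 5762 TPM in Rxra OE (1.77 ± 0.08, adjusted p = 2.01e-05) and took 1.55% and 1.56% of the TPM of genes outside the mitochondrial genes and their copies in Rxra OE, against 0.409% and 0.422% in CTR. Igf2r (45.7 to 31.5 TPM, -1.25 ± 0.07) and Ndn (-1.19 ± 0.07) fell.

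Hox genes rose and fell at shares near those of all tested genes (35.1% and 35.5%): 11 rose and 12 fell of 32 (median 0.11). As deposited 22 rose and 6 fell, where 68.6% and 14% of all tested genes did so. Hoxd11 (1.37 to 6.26 TPM, 1.06 ± 0.12), Hoxb7 (0.87 ± 0.17) and Hoxa9 (0.82 ± 0.09) rose, and Hoxb9 (33.6 to 18.8 TPM, -1.52 ± 0.07) and Hoxc13 (-1.60 ± 0.11) fell. Hoxc13 was tested only through CTR, so its direction carries no weight. Among 18 tested regulators of gastrulation and germ layers, 10 rose and 5 fell. Of these risers, 7 were under 1 TPM in both CTR libraries, so they were tested only through Rxra OE and their direction carries no weight. After Gbx2 and T, the risers Hand1 (0.185 to 2.14 TPM, 1.11 ± 0.20), Pax3 (0.474 to 2.92 TPM, 1.02 ± 0.11) and Eomes (1.09 to 4.17 TPM, 0.80 ± 0.09) stayed at a few TPM, and En1 fell (7.90 to 2.19 TPM, -2.06 ± 0.08).

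Markers of cell types other than fibroblasts were mostly low. Of 16 macrophage markers 3 were tested, of which 0 rose and 2 fell, and the list summed to 16.9 and 18.5 TPM in CTR and 13.1 and 13.4 TPM in Rxra OE. Lyz2 fell (9.06 to 4.17 TPM, -1.59 ± 0.08). Endothelial markers had 8 of 14 tested, of which 6 rose and 2 fell, with 2 of the risers under 1 TPM in both CTR libraries: Flt1 was at 2.47 and 2.62 TPM in CTR and 22.2 and 22.5 TPM in Rxra OE (2.09 ± 0.07) and Cdh5 at 1.35 and 1.59 TPM in CTR and 10.7 and 10.1 TPM in Rxra OE (1.64 ± 0.08), while Eng fell (-1.82 ± 0.10), and Pecam1, at 0.0234 and 0 TPM in CTR and 0.0422 and 0 TPM in Rxra OE, was not tested; the list summed to 19.1 and 20.5 TPM in CTR and 84.7 and 79.2 TPM in Rxra OE. Eng was under 1 TPM in both Rxra OE libraries, so its direction carries no weight. Of 10 tested neural markers, 4 rose and 6 fell, with Stmn2 rising (8.47 to 30.7 TPM, 1.04 ± 0.08) and the glial gene S100b (5.70 to 2.05 TPM, -1.70 ± 0.09) falling, and a sum of 47.2 and 51.8 TPM in CTR and 86.7 and 82.1 TPM in Rxra OE. Heart and striated muscle genes had 9 rose and 2 fell of 11 tested, 19 others being too low and 6 of the risers being under 1 TPM in both CTR libraries: Myl7 was at 5.15 and 6.99 TPM in CTR and 61.7 and 53.5 TPM in Rxra OE (2.37 ± 0.11) and Myod1 at 0.701 and 0.974 TPM in CTR and 6.32 and 5.97 TPM in Rxra OE (1.47 ± 0.10), and the tested falls were not calls as deposited. That list summed to 14.3 and 17.3 TPM in CTR and 136 and 124 TPM in Rxra OE, with Nppa, Myog, Myf5, Myf6 and Mb at 0 throughout. Keratinocyte, adipocyte and erythroid markers had 8, 2 and 2 tested members. Of their risers, 4, 1 and 1 were under 1 TPM in both CTR libraries and were tested only because of their level in Rxra OE, so no direction is read from these lists. Their sums were 42.0 and 44.1 TPM in CTR and 53 and 53.9 TPM in Rxra OE for keratinocytes, 3.01 and 2.90 TPM in CTR and 6.76 and 6.84 TPM in Rxra OE for adipocytes and 2.76 and 2.52 TPM in CTR and 12 and 12 TPM in Rxra OE for erythroid cells. The part of such cells in the changes above was not tested.

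Another pair of experiments of the series gives values to set beside these: fibroblasts given the compound CD against DMSO, and knockdown of Exosc3 (shE3) against a control hairpin (shCTR), each with 2 libraries per group and controls of its own. Both were fitted in the same way, each table by itself and relative to its own median gene only, and no difference between tables was tested. With CD, 30.5% of 13006 genes rose and 31.1% fell, and with shE3, 14.2% of 15700 rose and 13.9% fell. Of the 4295 genes that rose with Rxra OE and were tested with CD, 3005 (70%) rose with CD and 91 (2.12%) fell there; the 3005 were 77.6% of the genes that rose with CD. Of 4586 that fell with Rxra OE, 3323 (72.5%) fell with CD, 84.6% of the genes that fell there. With shE3 the larger overlap was in the opposite direction: of 4398 genes that rose with Rxra OE, 1515 (34.4%) fell with shE3 and 79 (1.8%) rose, and of 4688 that fell, 1686 (36%) rose with shE3 and 184 (3.92%) fell.

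**Figure D5:**
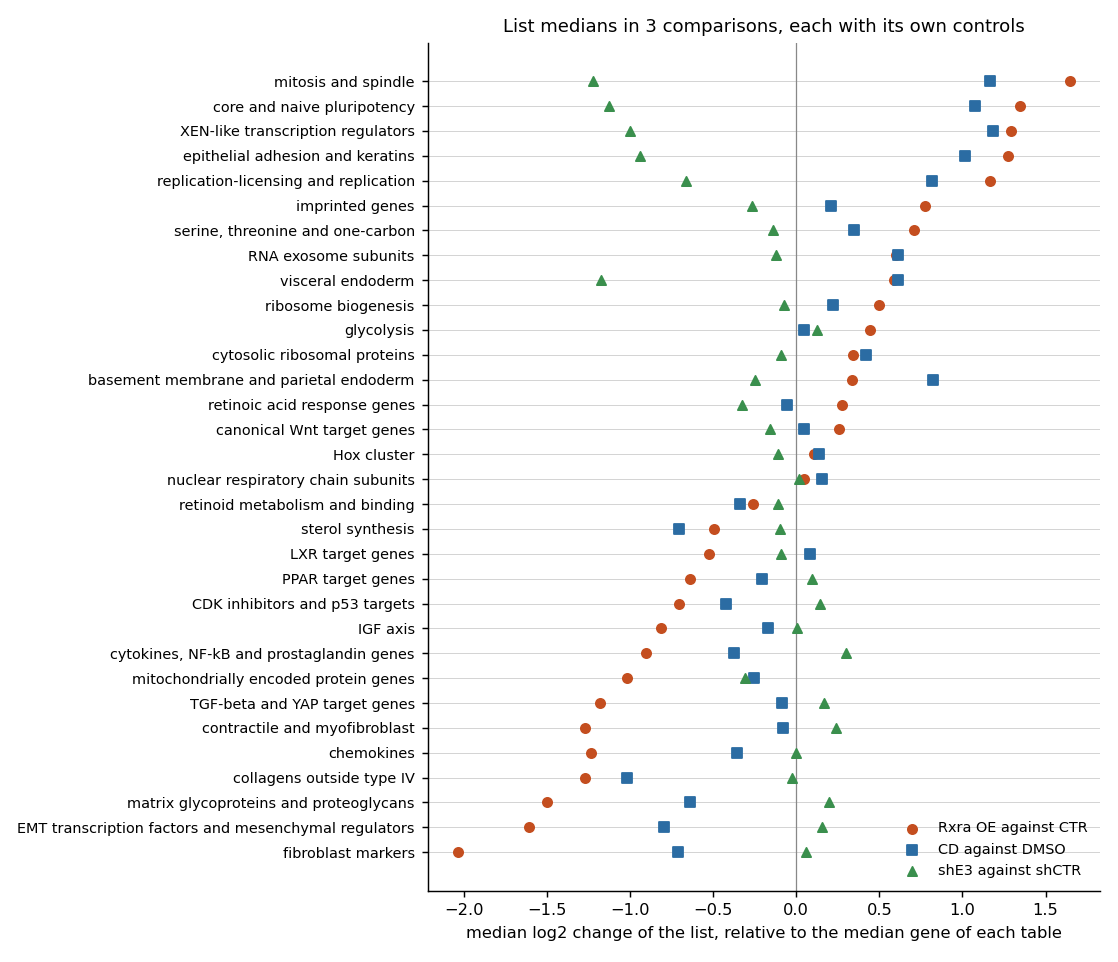
Median log2 change of 32 gene lists, relative to the median gene of each table, for Rxra OE against CTR (orange circles), CD against DMSO (blue squares) and shE3 against shCTR (green triangles), 2 libraries per group. The lists at the top have medians above 0 with Rxra OE and CD and below 0 with shE3; fibroblast markers at the bottom stand at -2.03, -0.71 and 0.06.

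Lists with like values in the Rxra OE and CD tables were XEN-like regulators (medians 1.29 and 1.18, and -1.0 with shE3), epithelial genes (1.27, 1.01 and -0.94) and exosome subunits (0.60, 0.61 and -0.12). Some lists had equal counts, such as other RNA decay (20 rose and 3 fell of 35, and with CD 20 rose and 3 fell of 35). In 3 lists chosen after their values were seen, the counts were further apart. Contractile genes had 2 rose and 15 fell of 17 with Rxra OE, and with CD 4 rose and 6 fell of 16 (medians -1.27 and -0.08). TGF-beta and YAP targets had 1 rose and 16 fell of 20 with Rxra OE, and with CD 4 rose and 10 fell of 20 (medians -1.18 and -0.08). Interferon-stimulated genes had 3 rose and 7 fell of 17 with Rxra OE, and with CD 10 rose and 3 fell of 16 (medians -0.32 and 0.37). For mitosis and spindle genes, the shE3 table listed 0 rose and 29 fell of 29 (median -1.22).

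Single genes of the retinoid pathway, the contractile apparatus and the exosome can be set side by side in the same way, with log2 changes relative to the median gene of each table. Rxra itself differed: against its rise of 0.47 ± 0.06 with Rxra OE, it was at 11 and 12 TPM in DMSO and 8.44 and 9.26 TPM in CD (-0.53 ± 0.06) and at 28.8 and 36.6 TPM in shCTR and 43.0 and 39.4 TPM in shE3 (0.38 ± 0.08). Cyp26a1 was at 83.8 and 89.3 TPM in DMSO and 413 and 421 TPM in CD (2.05 ± 0.03) and at 169 and 191 TPM in shCTR and 61.5 and 61.0 TPM in shE3 (-1.5 ± 0.04). Rarb was at 47.8 and 51.8 TPM in DMSO and 29.1 and 28.8 TPM in CD (-0.97 ± 0.04) and at 142 and 152 TPM in shCTR and 167 and 159 TPM in shE3 (0.19 ± 0.04). So the change of Cyp26a1 was positive and that of Rarb negative with CD as well, and both had the opposite sign with shE3. Cdx1, which reached 16.6 and 15.3 TPM in Rxra OE, was at 0.237 and 0.254 TPM in DMSO and 0.669 and 0.733 TPM in CD, below the limit for testing there. Acta2, which fell with Rxra OE (-1.85 ± 0.05), was at 20.0 and 19.6 TPM in DMSO and 27.5 and 26.6 TPM in CD (0.23 ± 0.06). Ccn1, at 123 and 134 TPM in CTR and 42.4 and 42.3 TPM in Rxra OE here (-2.32 ± 0.05), was at 52.0 and 52.9 TPM in DMSO and 55.5 and 56.0 TPM in CD (-0.12 ± 0.04). Exosc3 was at 9.28 and 10.6 TPM in DMSO and 18.7 and 19.7 TPM in CD (0.69 ± 0.06) and at 8.86 and 10.2 TPM in shCTR and 5.97 and 4.01 TPM in shE3 (-0.79 ± 0.17), where it is the gene knocked down.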

How the data were processed

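RNA was sequenced from 4 libraries, 2 Rxra OE and 2 CTR. Per the submitters' processing notes, reads were trimmed with fastp 0.20.1, aligned with HISAT2 2.1.0 to mm10 and quantified with StringTie 2.0, and the authors deposited TPM per gene, each library summing to 999943 to 999985. TPM keep no sequencing depth, so depth and counting error are not known. Gene names came from GENCODE M21 (55141 of 55401 identifiers). Genes at 1 TPM or more in at least 2 libraries were tested with limma 3.58.1 (R 4.3.3, empirical Bayes with trend, 2-sided, Benjamini-Hochberg over all tested genes, threshold 0.05) on log2(TPM + 1), after each library was divided by its median ratio over genes to their geometric means. A pseudocount of 1 understates changes of low genes. The script was tested on simulated data. The CD and shE3 tables were fitted likewise, each by itself. The libraries' replicate numbers carry no stated pairing.

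The comparison, the 62 gene lists and the rule for named genes were chosen with earlier results of these data known. The rule names Rxra, Exosc3 and Cyp26a1, the 12 largest changes per direction among genes called in 3 scalings whose groups do not overlap, with a mean of at least 20 TPM in the higher group and a symbol that is no clone name (Gm, Rik) or small RNA, and of each list up to 4 members per direction by p and the most abundant one, or any member of a list of at most 16. Genes outside the rule that mark a pathway step or go against their list were chosen after their values were seen. Copies of mitochondrial genes were compared with blastn 2.17.0. Other scalings, pseudocounts, filters, replicate handling and moderation settings were tried. The MEF, iPSC and actinomycin D tables were not used here. Results for some items are not reported here.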

Additional observations from a re-analysis of the deposited data

How the results depend on the processing

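Of the choices tried, scaling moved the counts most. Higher and lower genes numbered 9123 and 1862 with TPM as deposited and 7445 and 2884 rescaled to nuclear genes, against 4667 and 4718 relative to the median gene. Of the 9385 called genes, 1965 changed sign as deposited, 752 rescaled to nuclear genes, 63 under quantile normalization and 0 of those fitted under the other alternatives. Leaving the copies on chromosome 1 out of the nuclear sum (chosen after seeing the data) gave 5463 and 4005. Without 1 library the counts ranged from 3541 to 4324 higher and from 3728 to 4468 lower, the lone library of a group being assumed to vary like the other group. With a filter at 5 TPM, which tests fewer genes, they were 3183 and 3335. Rxra stayed higher and past the threshold in every alternative, at 0.37 with a pseudocount of 5 to 1.17 as deposited, and at 0.45 to 0.56 without 1 library. The difference in mitochondrial share was -9.72 percentage points, -11.1 to -8.37 without 1 library, -9.7 for the 13 protein genes, -1.01 without mt-Nd4l and -13.1 with the copies on chromosome 1 (chosen after seeing the data); these differ by the genes summed.

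The libraries' numbers were not shown to pair them: deviations of the number 1 libraries from their group means correlated at r = -0.135 across 13305 genes. A replicate block gave 4590 higher and 4636 lower genes and the same call for Rxra (limma adjusted p = 0.00128, over the alternatives 4.51e-05 to 0.00506). With the numbers crossed (chosen after seeing the data) the counts were 4828 and 4883. Of 251 named genes, 15 had the opposite sign as deposited, with a call on that scale or relative to the median gene: Cdh2 0.48, Dsp 0.11, Etv4 0.58, Exosc10 0.58, Exosc4 0.66, Jup 0.46, Notum 0.72, Nr1h2 0.62, Pdgfra 0.31, Ppbp 0.21, Rpa1 0.45, Srebf1 0.58, Tjp1 0.41, Vim 0.62 and mt-Co1 0.064. Rescaled to nuclear genes, 9 did: Etv4 0.30, Exosc10 0.28, Exosc4 0.37, Jup 0.16, Notum 0.40, Nr1h2 0.31, Rpa1 0.15, Srebf1 0.28 and Vim 0.30. Under quantile normalization 1 did, Notum (0.23), and under the other alternatives 0. Only the scaling differs between these values. TPM carry no depth, so what depth limits cannot be given.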

Other observations

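The features below were chosen after their values were seen. Mir124a-3, a microRNA gene, was at 0 and 0 TPM in CTR and 962 and 826 TPM in Rxra OE. Elsewhere in the series it stood at 129 and 177 TPM in DMSO and 0 and 0 TPM in CD, and at 0 and 508 TPM in shCTR and 0 and 0 TPM in shE3, so that replicates of shCTR differed. Gm11175, Gm27335 and Gm47299 were likewise listed at 0 in both libraries of one group and at 5 TPM or more in both of the other. Gm38431 was at 0.243 and 0.221 TPM in CTR and 20.1 and 21.7 TPM in Rxra OE, and at 2.72 and 12.4 TPM in DMSO and 14.1 and 4.00 TPM in CD, where the groups overlapped.

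Gapdh, a glycolysis gene with many processed copies in the genome that may take some of its reads, was at 3.50 and 5.39 TPM in CTR and 20.4 and 15.3 TPM in Rxra OE. Its levels were 12.3 and 40.1 TPM in DMSO and 66.4 and 82.0 TPM in CD, and 177 and 184 TPM in shCTR and 165 and 193 TPM in shE3. Other enzymes of the pathway stood higher in the Rxra OE table: the mean of Tpi1 went from 87.6 to 362 TPM and that of Eno1 from 186 to 487 TPM.

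S100g, a calcium-binding protein gene outside the lists, was at 475 and 573 TPM in CTR and 3129 and 3100 TPM in Rxra OE and rose (1.83 ± 0.07). With CD it was at 610.0 and 670.4 TPM in DMSO and 2583 and 2698 TPM in CD (1.83 ± 0.03), and with shE3 at 1420 and 1538 TPM in shCTR and 609 and 613 TPM in shE3 (-1.23 ± 0.04), relative to the median gene of each table. The groups did not overlap in any of the 3 tables. In the Rxra OE table both Rxra OE libraries were above both CTR libraries in 74.3% of all tested genes as deposited.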
